A study of Mus musculus with 23 samples.

Results

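The CXC chemokines were represented by 10 transcripts, Cxcl1, Cxcl2, Cxcl5, Cxcl9, Cxcl10, Cxcl12, Cxcl13, Cxcl14, Cxcl15 and Cxcl16, taken by gene symbol from a table of 35322 genes, in which all 10 were listed. They were compared across lung RNA-Seq libraries of 23 BALB/c mice aged 13 weeks, named as female in the methods. Dams received PM2.5, fine particulate matter from air, or saline by the nose from before mating to weaning. Offspring of saline dams formed the Sham group (n = 7) and the Sham-OVA group (n = 5), and offspring of PM2.5 dams formed the PM group (n = 7) and the PM-OVA group (n = 4). The OVA groups were sensitised with ovalbumin in alum and challenged with ovalbumin aerosol to induce allergic airway disease (AAD), whereas the Sham and PM groups had a control challenge that the labels call PBS and the methods nebulised saline. Lungs were taken after lung function testing. The labels do not give the dam of an animal, so litter mates could not be accounted for.

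CXC chemokines are small secreted proteins that draw leucocytes along a gradient by binding G protein-coupled receptors. Cxcl1, Cxcl2 and Cxcl5 attract neutrophils through Cxcr2, and Cxcl15 is a neutrophil attractant made mainly in the lung. Cxcl9 and Cxcl10 are induced by interferon and draw activated T cells and NK cells through Cxcr3, and Cxcl13 draws B cells through Cxcr5 into lymphoid follicles. Cxcl12 retains and positions haematopoietic cells through Cxcr4 and is scavenged by Ackr3. Cxcl14 is a constitutive epithelial and stromal chemokine, and Cxcl16 is a membrane-anchored ligand of Cxcr6 that Adam10 and Adam17 can shed.

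Promoter sequence was considered first, because Cxcl1 and Cxcl2 are close neighbours of which Cxcl1 was called after OVA in Sham offspring and Cxcl2 was not, while neither was called in PM offspring, and Cxcl9 and Cxcl10 are neighbours that were both called. The 250 bases before the transcription start are given 5′ to 3′ in the direction of the gene, from RefSeq on GRCm38.p6, with motif matches in capitals. The windows are chr5:90890995-90891244 (+ strand) for Cxcl1, chr5:90903649-90903898 (+ strand) for Cxcl2, chr5:92328080-92328329 (- strand) for Cxcl9 and chr5:92348890-92349139 (- strand) for Cxcl10.
Cxcl1: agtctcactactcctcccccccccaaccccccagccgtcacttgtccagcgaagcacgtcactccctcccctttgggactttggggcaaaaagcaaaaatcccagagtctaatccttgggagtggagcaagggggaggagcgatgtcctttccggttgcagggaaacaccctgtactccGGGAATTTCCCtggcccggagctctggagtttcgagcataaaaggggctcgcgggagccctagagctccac
Cxcl2: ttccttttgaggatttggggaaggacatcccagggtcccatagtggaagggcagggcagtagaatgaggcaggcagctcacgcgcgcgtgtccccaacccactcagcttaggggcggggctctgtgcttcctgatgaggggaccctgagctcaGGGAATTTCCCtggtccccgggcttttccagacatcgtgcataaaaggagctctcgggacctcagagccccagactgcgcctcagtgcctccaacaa
Cxcl9: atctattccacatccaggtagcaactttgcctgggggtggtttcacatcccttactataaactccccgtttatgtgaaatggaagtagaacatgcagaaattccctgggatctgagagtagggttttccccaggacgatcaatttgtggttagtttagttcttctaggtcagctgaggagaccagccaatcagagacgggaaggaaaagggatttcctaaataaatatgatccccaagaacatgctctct
Cxcl10: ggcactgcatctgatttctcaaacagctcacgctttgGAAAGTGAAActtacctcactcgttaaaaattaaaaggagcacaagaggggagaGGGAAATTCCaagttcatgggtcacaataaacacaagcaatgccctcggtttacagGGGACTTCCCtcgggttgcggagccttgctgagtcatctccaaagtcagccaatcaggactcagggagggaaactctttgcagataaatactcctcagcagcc

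The capitals in Cxcl1 and Cxcl2 mark a match to the NF-kappaB consensus, whose stretch GGGAATTTCC began 71 bases before the start in Cxcl1 and 97 bases before the start in Cxcl2. That stretch was read from the Cxcl1 window and then searched as it stood, so its presence in Cxcl1 was fixed in advance. On either strand, it was held by 29 of the 32851 promoter windows of 300 bases in the reference (0.0883%). That share is therefore no test of enrichment. The window of Cxcl3, a further Cxcr2 ligand, held it as well. In Cxcl10 the capitals mark the core of an interferon-stimulated response element, searched as a pair of GAAA half-sites with any 2 bases between them, at 213 bases before the start, and matches to the NF-kappaB consensus at 159 and 103 bases. The NF-kappaB consensus was held by 4.51% of all windows and the response element core by 3.44%. The GGGAATTTCC stretch is itself a match to the NF-kappaB consensus. Of the other motifs searched on both strands, TTCNNNGAA (8.30% of windows) was matched by Cxcl14 alone among the 8 members with a window, 191 bases before its start, and TTC and GAA with any 4 bases between them (6.95%) by none. Cxcl14 also held the response element core, at 172 bases. No letters of these motifs were found in the Cxcl9 window. A match is a description of the letters and was not tested as a binding site, and no window was at hand for Cxcl5 and Cxcl16.

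In the GENCODE annotation of GRCm38, 7 of the 10 genes lie on chromosome 5. Cxcl5 (chr5:90759360-90761624), Cxcl15 (chr5:90794534-90803067), Cxcl1 (chr5:90891241-90893115) and Cxcl2 (chr5:90903871-90905938) form one cluster on the + strand, Cxcl9 (chr5:92321347-92328079) and Cxcl10 (chr5:92346638-92348889) lie together on the - strand, and Cxcl13 (chr5:95956951-95961068) stands apart on the + strand. Cxcl12 is at chr6:117168535-117181367 (+), Cxcl14 at chr13:56288643-56296551 (-) and Cxcl16 at chr11:70453983-70459984 (-). Reads could be shared with other genes over 14.2% of the stretches of 100 bases in Cxcl16 transcripts (Zmynd15, opposite strand), 3.05% in Cxcl2 (Cxcl3) and 1.39% in Cxcl10 (Art3, opposite strand), and over 0 in the other 7. The strand setting of the counting is not given in the sources used here.

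Values are RPM, the reads of a gene scaled to a common library total, as deposited. The reads on genes were 13827228 to 16671489 in Sham, 13089691 to 17393579 in PM, 2298645 to 12185451 in Sham-OVA and 4324326 to 12355561 in PM-OVA. The shallowest libraries were replicate 3 of Sham-OVA, in which 1 read was worth 0.311 RPM, and replicates 3 and 4 of PM-OVA, in which it was worth 0.133 and 0.182 RPM. A fit below without these 3 libraries drops only those that the comparison holds. In Sham offspring that is replicate 3 of Sham-OVA, and in PM offspring replicates 3 and 4 of PM-OVA. Sham replicate 1 stood apart from the label of female offspring, since it alone held the Y-linked Eif2s3y (54.0 RPM) and it had Xist at 0.289 RPM. It was kept, and leaving it out changed the call of 1 member, Cxcl14, in 1 comparison. All 6 lung markers looked for, such as Sftpc and Scgb1a1, were present, and their summed level ranged from 23623 to 64114 RPM over the 23 libraries. On the RPM scale the median gene was lower after OVA, by -0.48 on the log2 scale in Sham-OVA against Sham and by -0.43 in PM-OVA against PM, so changes of the members are to be read against those medians. In bulk lung, fewer cells of a type and less RNA per cell cannot be told apart.

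Cxcl15 dominated the family at every condition. Scaled by exon length, it stood at 720 ± 188 RPM per kilobase in Sham (SD, n = 7), and it made up 82.1% ± 3.4 (SD, n = 7) of the summed level of the 10 members. In PM its share was 84.9% ± 2.2 (SD, n = 7), in Sham-OVA 82.4% ± 6.8 (SD, n = 5) and in PM-OVA 80.2% ± 7.1 (SD, n = 4). These shares overlapped between all 4 groups.
Next in Sham came Cxcl14, at 54.9 ± 13.0 RPM per kilobase (SD, n = 7), Cxcl12, at 53.6 ± 11.9 (SD, n = 7), and Cxcl16, at 32.7 ± 5.04 (SD, n = 7). The levels of Cxcl14 and Cxcl12 did not differ beyond their spread. This order depends on the length used, the union of exons, which was 8176 bases for Cxcl12 and 1827 for Cxcl14. In RPM, not scaled by length, the Sham mean was 438 for Cxcl12 and 100.2 for Cxcl14.
The inducible members were far lower: Cxcl13 was at 5.06 ± 3.35 RPM per kilobase, Cxcl1 at 2.13 ± 0.39, Cxcl2 at 1.04 ± 0.31, Cxcl10 at 0.572 ± 0.334, Cxcl5 at 0.447 ± 0.282 and Cxcl9 at 0.0995 ± 0.0637 (SD, n = 7 Sham libraries each). After OVA in Sham offspring the order changed below Cxcl15. Cxcl16 (51.4 ± 8.86 RPM per kilobase, SD, n = 5) then stood above Cxcl14 (41.8 ± 10.7) and Cxcl12 (25.6 ± 9.29), and Cxcl5 (6.81 ± 5.61) above Cxcl1 (5.73 ± 1.95) by less than their spread. Without length scaling, Cxcl12 still had a higher mean than Cxcl16 in Sham-OVA, 209 beside 155 RPM.

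**Figure D1:**
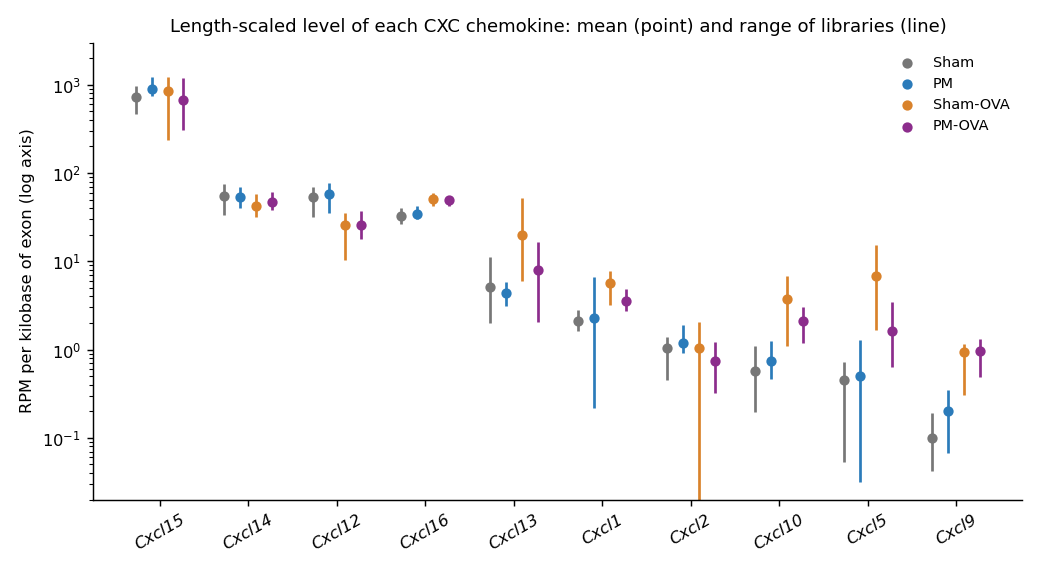
Level of each CXC chemokine in RPM per kilobase of exon (vertical log axis), ordered by the Sham mean, with the mean of each group as a point and the range of its libraries as a line; a line that reaches the lower edge includes a library at 0 (Cxcl2 in Sham-OVA). Cxcl15 lies far above the rest in each group, and Cxcl9 is the lowest in Sham at 0.0995.

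After OVA challenge 6 of the 10 CXC chemokines rose in Sham offspring and 1 fell. Cxcl1, Cxcl5, Cxcl9, Cxcl10, Cxcl13 and Cxcl16 were higher and Cxcl12 was lower in Sham-OVA than in Sham at a Benjamini-Hochberg adjusted p under 0.05 with limma, while Cxcl2, Cxcl14 and Cxcl15 were not called. In this comparison 68.1% of the 16795 genes tested were called, 20.6% as higher and 47.5% as lower. In PM offspring 4 members rose after OVA (Cxcl5, Cxcl9, Cxcl10 and Cxcl16), Cxcl12 fell and 5 were not called, against 65.3% of all genes called, 20.1% as higher and 45.2% as lower. The counts of other gene lists and markers below are to be read against these shares as well. The median log2 fold change of the 10 members was 0.96 in Sham offspring and 0.50 in PM offspring, beside the medians of all genes given above. Other scalings changed the balance of all calls: the share of calls that were higher was 30.2% on the RPM scale in Sham offspring and 43.4% to 49.6% under quantile normalisation, median-of-ratios scaling, edgeR and DESeq2, and 30.8% against 44.7% to 50.1% in PM offspring. The 7 members called in Sham offspring kept their direction and their call under each of those 4. All 10 passed the filter on low values.
The libraries of Sham-OVA lay wholly above those of Sham for 4 members (Cxcl1, Cxcl5, Cxcl9 and Cxcl16), as for 13.2% of all genes. In PM offspring this held for Cxcl9 alone, against 13.3% of all genes. Under the stricter rule used in the study, an adjusted p under 0.000001 with an absolute log2 fold change above 1, limma called 0 members in either comparison, where 4.51% and 0.286% of all genes were called. The rule depended on the tool. With DESeq2, the tool of the study, it called 5 members in Sham offspring (Cxcl1, Cxcl5, Cxcl9, Cxcl10 and Cxcl16) against 28.9% of all genes, and 2 in PM offspring (Cxcl9 and Cxcl10) against 17% of all genes. With edgeR it called 1 member in Sham offspring (Cxcl9) against 8.26% of all genes, and 0 in PM offspring against 0.25%. Fold changes are differences of means of log2(RPM + 0.5), which understates the change of members near or below 1 RPM.

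**Figure D2:**
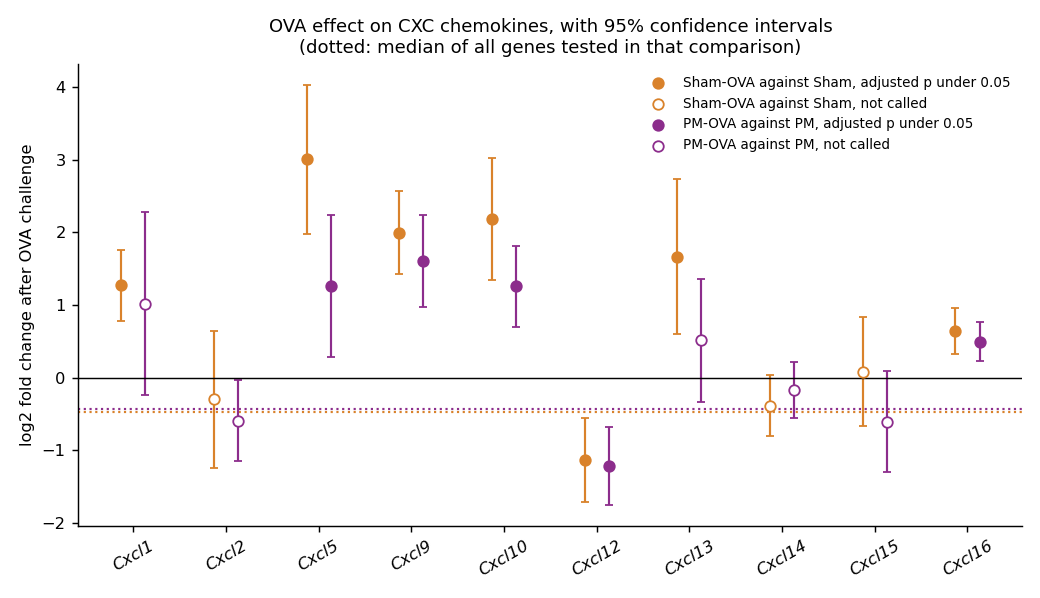
Log2 fold change after OVA challenge (vertical axis) of each CXC chemokine in offspring of saline dams (orange) and of PM2.5 dams (purple), with 95% confidence intervals as bars; filled points passed an adjusted p of 0.05 and dotted lines mark the median of all genes tested. Cxcl5 has the highest value among the members, 3.01 in Sham offspring, and Cxcl12 the lowest in both.

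**Figure D3:**
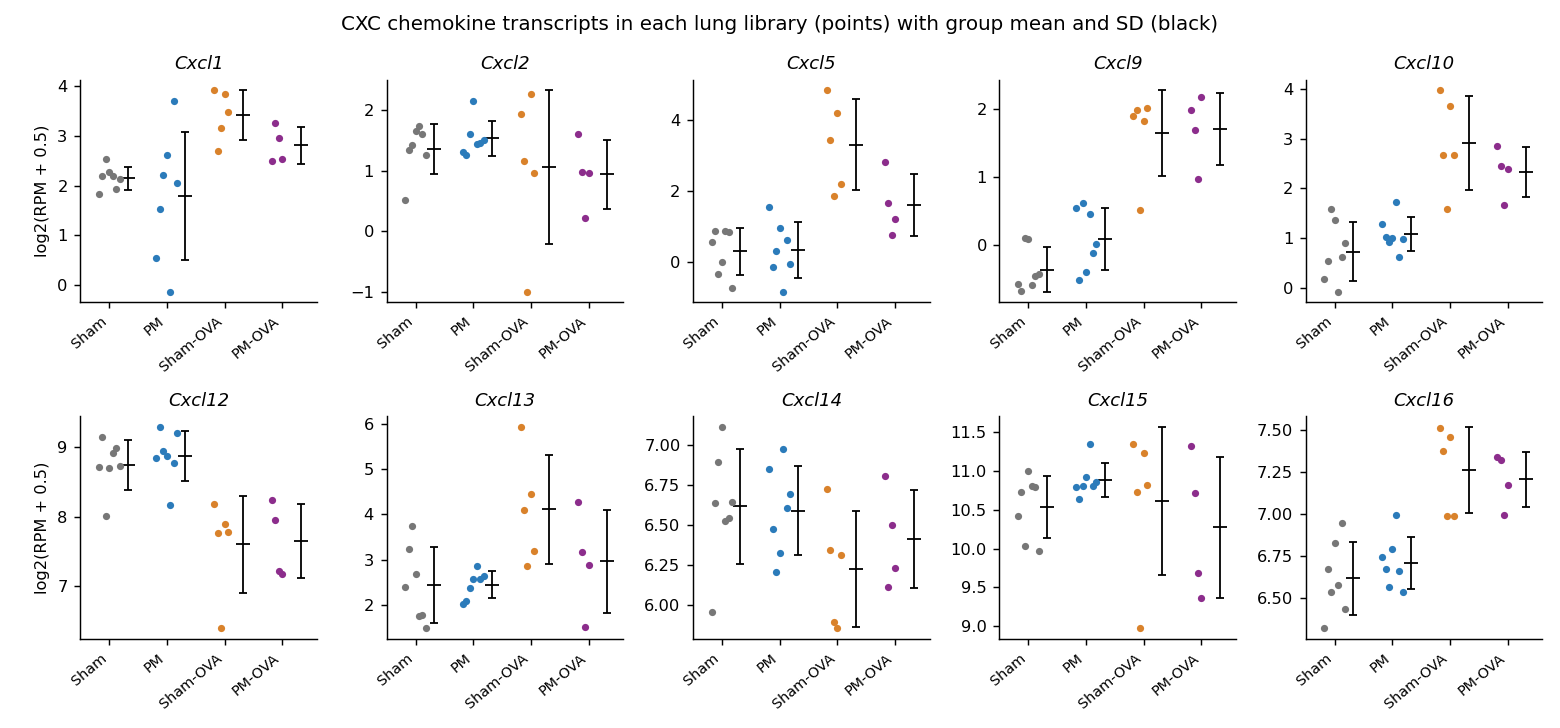
Level of each CXC chemokine as log2(RPM + 0.5) in each of the 23 libraries (points) of the 4 groups, with the group mean and SD in black; panels have their own vertical scale. Sham-OVA replicate 3, the shallowest library, is the lowest of its group in 7 of the 10 panels.

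Among the neutrophil attractants, Cxcl5 showed the widest difference. In Sham it ranged from 0.1004 to 1.34 RPM with a median of 0.981, and in Sham-OVA replicates 1 to 5 it was 28.2, 10.4, 3.11, 17.7 and 4.09 RPM. In PM it ranged from 0.0587 to 2.41 RPM with a median of 0.727, and in PM-OVA replicates 1 to 4 it was 6.52, 2.63, 1.19 and 1.82 RPM. Every Sham-OVA library was above every Sham library, whereas 2 of the 4 PM-OVA libraries were within the range of PM. The group mean was 15.3 times higher in Sham-OVA than in Sham and 3.25 times higher in PM-OVA than in PM. Cxcl5 rose by 3.01 on the log2 scale in Sham offspring (SE 0.48, limma adjusted p = 7.52e-05) and by 1.27 in PM offspring (SE 0.45, limma adjusted p = 0.0255). In PM offspring the value was 2.06 with edgeR and 2.01 with DESeq2, and the call was lost with array weights (0.65, limma adjusted p = 0.342), after thinning all libraries to one depth (1.24, limma adjusted p = 0.0539) and without PM-OVA replicate 1 (0.87, limma adjusted p = 0.0836) or replicate 2 (1.26, limma adjusted p = 0.0506).

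Cxcl1, the mouse counterpart of the human GRO chemokines, was steady in Sham, from 3.06 to 5.33 RPM with a median of 4.05. It was 14.7, 6.02, 8.39, 13.9 and 10.7 RPM in Sham-OVA replicates 1 to 5, all above Sham. In PM it was scattered, from 0.411 to 12.6 RPM with a median of 3.64, and in PM-OVA replicates 1 to 4 it was 5.11, 9.12, 7.30 and 5.27 RPM. All 4 of those lay within the range of PM. Cxcl1 rose by 1.27 in Sham offspring (SE 0.23, limma adjusted p = 2.10e-04), and the difference of 1.02 in PM offspring had an SE of 0.58 and was not called (95% CI -0.24 to 2.28, limma adjusted p = 0.138). One saline library, PM replicate 6, held the highest PM value, and without it the difference of 1.34 passed (limma adjusted p = 0.0321), as did 1.47 under quantile normalisation (limma adjusted p = 0.0412).

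Cxcl2, which shares the GGGAATTTCC stretch with Cxcl1 and attracts neutrophils through the same receptor, was not called in either cohort. Sham libraries held 0.924 to 2.84 RPM with a median of 2.20, and Sham-OVA replicates 1 to 5 held 3.34, 1.73, 0, 4.30 and 1.46 RPM. In PM it was 1.89 to 3.95 RPM with a median of 2.26, and in PM-OVA replicates 1 to 4 it was 2.55, 1.47, 0.664 and 1.45 RPM. The 0 in Sham-OVA replicate 3 allows up to 0.932 RPM (3 reads, counting error only). The fitted difference was -0.30 in Sham offspring (95% CI -1.24 to 0.65, limma adjusted p = 0.562), where its sign turned under several settings, and -0.59 in PM offspring (95% CI -1.16 to -0.03, limma adjusted p = 0.0598). The latter passed without PM-OVA replicate 1 (-0.82, limma adjusted p = 0.00956) and with array weights (-0.95, limma adjusted p = 0.0195). Cxcl3, a neighbouring ligand of Cxcr2 outside the set of 10, rose by 2.35 (SE 0.43, limma adjusted p = 2.33e-04) and 1.02 (SE 0.34, limma adjusted p = 0.0190).

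Cxcl15, also known as lungkine, had no called difference. It was 1000.1 to 2045 RPM in Sham with a median of 1701, and 1587 to 2598 RPM in PM with a median of 1791. Sham-OVA replicates 1 to 5 held 2595, 1692, 502, 2394 and 1803 RPM, and PM-OVA replicates 1 to 4 held 2556, 1687, 825 and 660.2 RPM. The 3 shallowest libraries were the lowest of all 23, and the other OVA libraries overlapped the saline libraries. The fitted difference was 0.08 in Sham offspring (95% CI -0.67 to 0.83, limma adjusted p = 0.848) and -0.61 in PM offspring (95% CI -1.30 to 0.09, limma adjusted p = 0.111). In PM offspring it passed as lower without PM-OVA replicate 1 (-0.95, limma adjusted p = 0.00570), with array weights (-1.04, limma adjusted p = 0.00127) and under quantile normalisation (-0.79, limma adjusted p = 0.0431), and turned to 0.14 without the 3 shallowest libraries, a setting chosen after seeing the data. In Sham offspring it passed as higher with edgeR alone (0.60, edgeR adjusted p = 0.0469). Of 8 markers of alveolar type 2 cells, the surfactant-producing epithelium, 3 rose and 2 fell in each comparison. Their summed level was 14644 to 25608 RPM in Sham, 17807 to 32967 in PM, 31277 to 38105 in Sham-OVA and 25429 to 44980 in PM-OVA. Of 4 markers of club and airway secretory cells, 1 rose and 2 fell in each comparison. Their sum was 14766 to 37310 RPM in Sham, 15057 to 25148 in PM, 3726 to 27932 in Sham-OVA and 6008 to 34598 in PM-OVA. The part of both lists in the level of Cxcl15 was not tested.

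The receptors of these ligands fell. Cxcr2 was 3.82 to 34.1 RPM in Sham and 4.23 to 32.6 in PM, with medians of 13.9 and 16.9. In Sham-OVA replicates 1 to 5 it was 1.95, 1.96, 0.932, 8.29 and 1.31 RPM and in PM-OVA replicates 1 to 4 it was 5.24, 1.62, 1.33 and 0.545 RPM. All but 1 of the Sham-OVA and all but 1 of the PM-OVA libraries were below every saline library of their cohort. Cxcr2 fell by 2.22 on the log2 scale in Sham offspring (SE 0.51, limma adjusted p = 0.00136) and by 2.73 in PM offspring (SE 0.55, limma adjusted p = 0.00100). Cxcr1 fell by 1.55 and 0.93 (limma adjusted p = 1.18e-04 and 0.0101), with 0 to 2 reads in each Sham-OVA library and 2 or 3 in each PM-OVA library, so its level there is at the counting limit. All 4 PM-OVA libraries, at 0.202 to 0.398 RPM of Cxcr1, lay within the range of PM, 0.176 to 1.54 RPM. Both receptors were lower under each of the 4 other scalings, with the call lost for Cxcr1 in PM offspring under quantile normalisation.
Neutrophil markers did not move as one. Of 6, Retnlg rose and Csf3r fell in Sham offspring, and Retnlg and Ly6g rose and Csf3r and Mmp8 fell in PM offspring. The summed level was 62.1 to 649 RPM in Sham, 64.6 to 405 in PM, 116 to 726 in Sham-OVA and 219.9 to 254 in PM-OVA, and its part in the results on Cxcl1, Cxcl2, Cxcl5 and Cxcr2 was not tested. Of the 12 genes tested of the IL-17, TNF and NF-kappaB axis, through which Cxcl1, Cxcl2 and Cxcl5 are known to be induced, 2 rose and 4 fell in each cohort on the RPM scale. Among all genes tested, 20.6% and 20.1% were called as higher and 47.5% and 45.2% as lower. Il17rc, a subunit of the IL-17 receptor, rose by 1.52 and 1.63, and Tnfaip3, Nfkb1 and Nfkbiz fell, by 1.14, 1.09 and 1.05 in Sham offspring and by 1.43, 1.26 and 1.06 in PM offspring. Under edgeR the calls of Nfkb1 and Tnfaip3 were lost in both cohorts and that of Nfkbiz in PM offspring. Il17a did not pass the filter on low values.

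**Figure D4:**
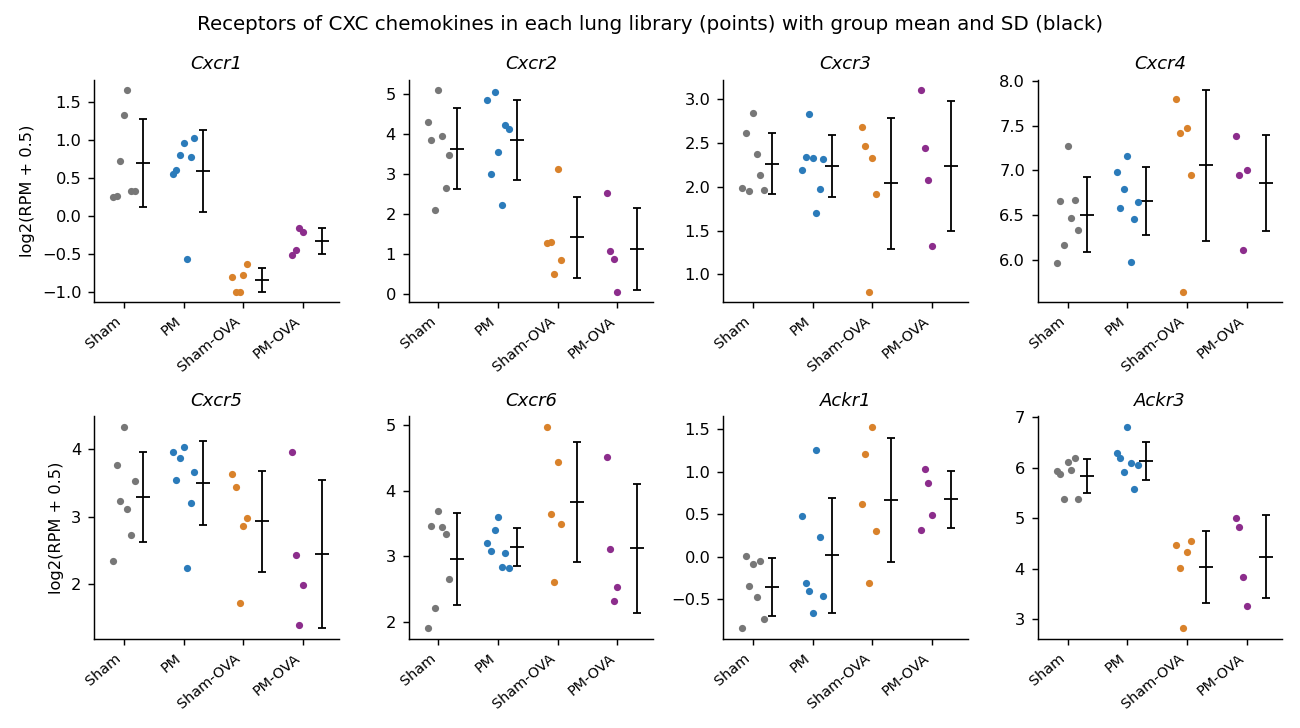
Level of 8 receptors of CXC chemokines as log2(RPM + 0.5) in each library (points) of the 4 groups, with group mean and SD in black. Cxcr1, Cxcr2 and Ackr3 have a lower mean in both OVA groups, although every PM-OVA library lies within the PM range for Cxcr1. Cxcr3 and Cxcr5 overlap between all groups.

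The interferon-inducible Cxcl9 and Cxcl10 rose in both cohorts. Cxcl9 was close to the counting limit in saline lungs, at 0.127 to 0.579 RPM in Sham with a median of 0.232 and 0.205 to 1.04 RPM in PM with a median of 0.512. It was 3.20, 3.46, 0.932, 3.03 and 3.51 RPM in Sham-OVA replicates 1 to 5 and 3.43, 2.70, 1.46 and 3.99 RPM in PM-OVA replicates 1 to 4. No OVA library overlapped the saline libraries of its cohort, although the value in Sham-OVA replicate 3 rested on 3 reads. The mean was 9.41 times higher in Sham-OVA than in Sham and 4.73 times higher in PM-OVA than in PM. On the log2(RPM + 0.5) scale Cxcl9 rose by 2.00 (SE 0.27, limma adjusted p = 1.63e-05) and by 1.61 (SE 0.29, limma adjusted p = 5.36e-04). The count model of edgeR, which does not add 0.5 RPM to each value, gave 3.66 and 2.58.

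Cxcl10 was 0.446 to 2.49 RPM in Sham with a median of 1.05 and 1.04 to 2.82 RPM in PM with a median of 1.51. Sham-OVA replicates 1 to 5 held 15.4, 5.87, 2.49, 12.2 and 5.84 RPM, and PM-OVA replicates 1 to 4 held 6.79, 4.95, 2.66 and 4.72 RPM. Only Sham-OVA replicate 3 and PM-OVA replicate 3 fell within the saline range. Cxcl10 rose by 2.18 (SE 0.40, limma adjusted p = 2.15e-04) in Sham offspring and by 1.26 (SE 0.26, limma adjusted p = 0.00116) in PM offspring. Its receptor Cxcr3 was 1.24 to 5.91 RPM in Sham-OVA and 2.00 to 8.13 in PM-OVA, beside 3.36 to 6.66 in Sham and 2.76 to 6.65 in PM, and was not called, with a sign that turned under the 4 other scalings.
Of 6 genes tested of the interferon-gamma axis, 2 rose and 3 fell in Sham offspring and 2 rose and 4 fell in PM offspring. On this RPM scale 47.5% of all genes were called as lower in Sham offspring and 45.2% in PM offspring. As higher, 20.6% and 20.1% were called. The median gene was at -0.48 and -0.43. Ifngr2, the signalling subunit of the interferon-gamma receptor, rose by 1.94 and 1.63, whereas the ligand-binding subunit Ifngr1 fell by 1.37 and 1.34, Jak1 by 1.21 and 1.41, and Jak2 by 0.95 and 0.79. The other gene that rose was Irf1 (0.84 and 0.72), named after its values were seen, and Ifng itself did not pass the filter on low values. T cell markers rose in 3 of 5 in Sham offspring and 2 of 5 in PM offspring, with summed levels of 43.5 to 98.0 RPM in Sham, 44.5 to 75.7 in PM, 80.5 to 173 in Sham-OVA and 78.3 to 127 in PM-OVA. NK cell markers fell in 3 of 4 and 4 of 4 tested, with sums of 45.8 to 128, 60.7 to 104, 16.8 to 77.9 and 28.3 to 59.5 RPM in the same order. Klra8 was at 0 in every library, saline ones included, so it carries no information on a change. The part of both lists in the levels of Cxcl9 and Cxcl10 was not tested.

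Cxcl13, the follicular B cell attractant, rose in Sham offspring and was not called in PM offspring, and the interaction between the cohorts, given further on, was not called. It was 2.31 to 12.9 RPM in Sham with a median of 4.79, and 60.7, 16.7, 6.84, 21.4 and 8.62 RPM in Sham-OVA replicates 1 to 5. In PM it was 3.58 to 6.75 RPM with a median of 5.47, and in PM-OVA replicates 1 to 4 it was 18.8, 8.50, 2.39 and 6.90 RPM. Sham-OVA replicate 1 was high and 2 Sham-OVA libraries overlapped Sham, and in PM-OVA 3 libraries were above every PM library while replicate 3 was below them all. The rise was 1.67 (SE 0.50, limma adjusted p = 0.00852) in Sham offspring, and the difference was 0.51 (95% CI -0.34 to 1.36, limma adjusted p = 0.263) in PM offspring. Without PM-OVA replicate 3 the latter was 0.99 and passed (limma adjusted p = 0.0144), and without PM-OVA replicates 3 and 4 it was 1.27 (limma adjusted p = 0.00405). It passed under the 4 other scalings (0.84 to 1.15), was 0.31 after thinning and 0.08 without PM-OVA replicate 1, and turned to -0.21 with array weights.
The lymphotoxin axis, which drives Cxcl13 in lymphoid stroma, rose in 5 of its 7 genes and fell in 1 in each cohort. Ltb rose by 2.24 and 1.54, the transcription factor subunit Nfkb2 by 1.67 and 1.30, the B cell survival factor Tnfsf13b by 1.05 and 0.68, and Lta by 0.64 and 0.99, each called as higher under the 4 other scalings too. Of 6 B cell markers, 2 rose in each cohort, and 1 fell in PM offspring. Their summed level was 58.9 to 259 RPM in Sham, 64.0 to 194 in PM, 198 to 569 in Sham-OVA and 180.03 to 334 in PM-OVA. Follicular stroma markers summed to 3.49 to 14.4, 5.804 to 13.2, 2.17 to 12.3 and 3.85 to 10.8 RPM in the same order, and 1 of 3 tested rose in each cohort and 1 fell in PM offspring. Ccl19 and Ccl21a, defining markers of that stroma, were at 0 in all 23 libraries. Whether reads of these genes could be placed in the alignment was not checked, so the 0 is not a measure of that stroma. The part of both lists in the level of Cxcl13 was not tested. Cxcr5, the receptor, was not called in either cohort (-0.36 and -1.06, limma adjusted p = 0.3899 and 0.0520).

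Cxcl12 fell in both cohorts, alone among the 10 members on the RPM scale. It was 258 to 564 RPM in Sham with a median of 421 and 288 to 627 RPM in PM with a median of 465. In Sham-OVA replicates 1 to 5 it was 289, 217, 83.6, 238 and 219 RPM, and in PM-OVA replicates 1 to 4 it was 303, 247, 149 and 145 RPM. All OVA libraries but replicate 1 of each group were below every saline library of their cohort. Cxcl12 fell by 1.14 on the log2 scale in Sham offspring (SE 0.27, limma adjusted p = 0.00180) and by 1.22 in PM offspring (SE 0.25, limma adjusted p = 0.00102). Since the median gene was lower as well, the fall relative to it was -0.66 and -0.79. With edgeR it fell by 0.67 in Sham offspring, and without the 3 shallowest libraries it fell by 0.77 in PM offspring (limma adjusted p = 0.0197).
Its scavenging receptor Ackr3 fell too, by 1.80 (SE 0.27, limma adjusted p = 4.18e-05) and 1.90 (SE 0.31, limma adjusted p = 3.16e-04), from 40.8 to 72.5 RPM in Sham and 47.2 to 112 in PM to 6.52 to 22.9 in Sham-OVA and 9.08 to 31.5 in PM-OVA. Cxcr4, the signalling receptor, was 49.4 to 222 RPM in Sham-OVA beside 61.8 to 154 in Sham, and was not called (0.55 and 0.20, limma adjusted p = 0.135 and 0.491). It passed as higher in both cohorts under the 4 other scalings, at 0.87 to 1.05 in Sham offspring and 0.54 to 0.60 in PM offspring. Dpp4, a protease that truncates Cxcl12 and other chemokines, fell by 1.51 and 1.38. Of 6 fibroblast markers, 2 fell in each cohort, and the summed level was 1454 to 1813 RPM in Sham, 1540.2 to 2688 in PM, 641 to 1716 in Sham-OVA and 634 to 2087 in PM-OVA. Of 6 capillary endothelium markers, 1 rose and 2 fell in each cohort. They summed to 2713 to 6455, 1890 to 6124, 3850 to 4647 and 3906 to 5058 RPM in the same order. Of 5 pericyte and smooth muscle markers, 2 rose and 3 fell in each. Their sums were 622 to 874, 673 to 1515, 815 to 1507 and 715 to 1615 RPM. Among all genes, 20.6% and 20.1% were called as higher and 47.5% and 45.2% as lower. The part of these lists in the level of Cxcl12 was not tested.

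Cxcl14 was not called. It was 61.7 to 138 RPM in Sham with a median of 99.1, and 73.5 to 126 RPM in PM with a median of 97.0. Sham-OVA replicates 1 to 5 held 105, 80.9, 59.0, 57.4 and 79.2 RPM, and PM-OVA replicates 1 to 4 held 111, 68.9, 90.3 and 74.8 RPM, so the groups overlapped in both cohorts. The differences were -0.39 (95% CI -0.81 to 0.03, limma adjusted p = 0.0940) and -0.18 (95% CI -0.56 to 0.21, limma adjusted p = 0.395), both above the median of all genes. The first lay between -0.08 and 0.06 under the 4 other scalings, none of them called. It passed as lower without Sham replicate 1 (-0.50, limma adjusted p = 0.0244), without Sham-OVA replicate 1 (-0.51, limma adjusted p = 0.0339) and with array weights (-0.41, limma adjusted p = 0.0199).

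Cxcl16 showed a small and even rise. It was 79.4 to 123 RPM in Sham with a median of 94.98 and 92.3 to 127 RPM in PM with a median of 102. Sham-OVA replicates 1 to 5 held 182, 165, 127, 176 and 126 RPM, and PM-OVA replicates 1 to 4 held 162, 159, 127 and 144 RPM. The Sham-OVA libraries were all above Sham, and 3 of the 4 PM-OVA libraries were above PM. Cxcl16 rose by 0.65 (SE 0.15, limma adjusted p = 0.00143) and by 0.50 (SE 0.12, limma adjusted p = 0.00394). With edgeR the rise was 1.11 and 0.88. Cxcr6, its receptor on activated T cells, was not called (0.88, limma adjusted p = 0.0666, and -0.02, limma adjusted p = 0.964). Of the sheddases, Adam10 and Adam17 were not called in Sham offspring and fell in PM offspring (by 0.80 and 0.51, limma adjusted p = 0.00668 and 0.0133), with interactions of -0.12 and -0.30 that were not called, and the fall of Adam17 was not called under any of the 4 other scalings. Of 7 markers of interstitial and recruited macrophages, a known source of Cxcl16, 6 rose in each cohort, and their sum was 817 to 1454 RPM in Sham, 961 to 1568 in PM, 3078 to 4750.0 in Sham-OVA and 3033 to 3557 in PM-OVA. Their part in the rise was not tested.

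Of the other CXC ligands, 4 were tested, and Cxcl11 was not analysed here. In Sham offspring 2 rose and 1 fell, and in PM offspring 3 rose and 1 fell. Pf4, a platelet and macrophage product, rose by 2.02 and 0.98, and Ppbp, the precursor of a platelet-derived neutrophil attractant, fell by 2.02 and 1.92. Cxcl17, a mucosal chemokine, was called in PM offspring (1.51, limma adjusted p = 0.00197) and not in Sham offspring (0.47, limma adjusted p = 0.279), and the interaction, 1.05 (SE 0.53), was not called. Ackr1, a decoy receptor for many inflammatory chemokines, rose by 1.03 in Sham offspring (limma adjusted p = 0.00578) and was not called in PM offspring (0.66, limma adjusted p = 0.102). It held 1 to 8 reads in each Sham library and 1 to 30 in each Sham-OVA library, so its Sham level is close to the counting limit.

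Maternal exposure was addressed in 3 further comparisons, in each of which 0 of the 10 members and 0% of the 16795 genes were called by limma. At an unadjusted p under 0.05, 731 genes passed in PM against Sham, 313 in PM-OVA against Sham-OVA and 854 in the interaction, and DESeq2 called 0, 1 and 2 genes at an adjusted p under 0.05, none of them a member. Without challenge, the widest differences between PM and Sham were in Cxcl9 (0.45, 95% CI 0.02 to 0.88, limma adjusted p = 0.898), Cxcl1 (-0.36, 95% CI -1.29 to 0.56, limma adjusted p = 0.917) and Cxcl10 (0.35, 95% CI -0.16 to 0.87, limma adjusted p = 0.898). The other 7 lay between -0.03 and 0.35. Cxcl1 differed in its scatter, with an SD of 4.10 RPM in PM beside 0.73 RPM in Sham, a contrast that was not tested.

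With challenge, in libraries that also enter the OVA comparisons above, 7 of the 10 members had a lower mean log2 level in PM-OVA than in Sham-OVA on the RPM scale, none of them called, and the widest difference was in Cxcl5 at -1.70 (95% CI -3.21 to -0.18, limma adjusted p = 1). The Cxcl5 values overlapped, since PM-OVA replicate 1 at 6.52 RPM was above Sham-OVA replicates 3 and 5. Cxcl13 followed at -1.15 (95% CI -2.69 to 0.40, limma adjusted p = 1), Cxcl1 at -0.61 (95% CI -1.35 to 0.13, limma adjusted p = 1) and Cxcl10 at -0.58 (95% CI -1.70 to 0.55, limma adjusted p = 1). Cxcl9, Cxcl12 and Cxcl16 were within 0.06 of 0, with intervals of -0.85 to 0.96, -0.79 to 0.89 and -0.43 to 0.32. The median difference of all genes tested was 0.013, and the count of 7 lower members was not tested.

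The interaction, which is the OVA effect in PM offspring minus that in Sham offspring, was negative for 9 of the 10 members. The median interaction of all genes tested was -0.005. The members varied together across the OVA libraries, as described below, so the 9 are not separate results, and their count was not tested. It was -1.74 for Cxcl5 (SE 0.71, limma adjusted p = 0.826), -1.15 for Cxcl13 (SE 0.69, limma adjusted p = 1.00), -0.93 for Cxcl10 (SE 0.51, limma adjusted p = 1.00) and -0.69 for Cxcl15 (SE 0.50, limma adjusted p = 1.00). The unadjusted p was 0.0213 for Cxcl5 and 0.106 for Cxcl13. For Cxcl1, which like Cxcl13 was called in Sham offspring and not in PM offspring, it was -0.25 (SE 0.63, limma adjusted p = 1.00). Under array weights, which give each library its own weight, 5 members passed (Cxcl2, Cxcl5, Cxcl10, Cxcl13 and Cxcl15), each as lower, with 4616 genes called overall. Without the 3 shallowest libraries 721 genes passed and 0 members did.

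The members varied together across the OVA libraries. Sham-OVA replicate 1 was the highest of its group for 8 of the 10 members and replicate 3 the lowest for 7, and PM-OVA replicate 1 was the highest for 8 and replicate 3 the lowest for 6. Depth moved with this order. For Cxcl2, Cxcl10, Cxcl12, Cxcl13 and Cxcl15 the 3 shallowest OVA libraries were all below the other 6, as for Cxcl15 at 502 to 825 RPM against 1687 to 2595 RPM. For Cxcl1, Cxcl5, Cxcl9, Cxcl14 and Cxcl16 they overlapped, as for Cxcl16 at 127 to 144 RPM against 126 to 182 RPM. Of the 3 shallowest libraries, only Sham-OVA replicate 3 enters the comparison of Sham offspring. Without it, and with all libraries thinned to the depth of the shallowest, the same 7 members were called there. In PM offspring thinning left Cxcl9, Cxcl10, Cxcl12 and Cxcl16 called.

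**Figure D5:**
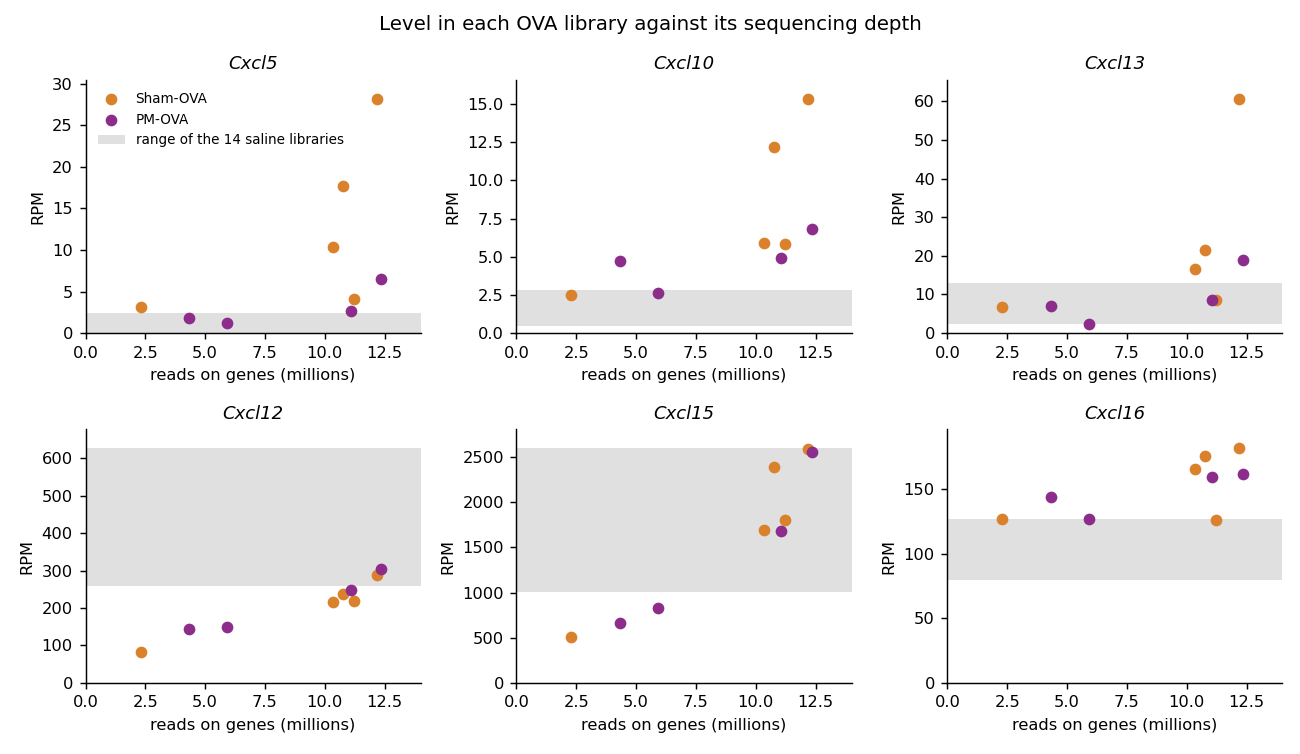
Level in RPM (vertical axis, from 0) of 6 CXC chemokines in each of the 9 OVA libraries against library depth (reads on genes, horizontal axis), Sham-OVA in orange and PM-OVA in purple, with the range of the 14 saline libraries shaded. The 3 shallowest libraries lie lowest for Cxcl10, Cxcl12, Cxcl13 and Cxcl15 and within the range of the other OVA libraries for Cxcl16.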

How the data were processed

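RNA from snap-frozen lung was sequenced as polyA-selected, stranded libraries. Per the submitters' notes, Trimmomatic 0.39 was used for trimming, Bowtie2 2.5.1 for alignment to GRCm38, SAMtools 1.17 for file handling and SeqMonk 1.48.1 for quantification by the authors. Bowtie2 does not split reads over introns, which lowers values of genes with short exons. The deposited table is named as RPKM, but its values are RPM: 100% of values in each library were whole multiples of 1 read, within 0.02 of a read, with no dependence on gene length, so reads were recovered for the count-based alternatives. This unit differs from the one assumed when the design was written.

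A gene was kept if 4 or more of the 23 libraries held 0.5 RPM or more, which left 16795 genes. The test on log2(RPM + 0.5) was that of limma (version 3.58.1, R 4.3.3), with an intensity trend, Benjamini-Hochberg adjustment over all genes kept and a threshold of 0.05. Each pair of groups was fitted on its own libraries and the interaction on all 23. The alternatives were pseudocounts of 0.1 and 1, other filters, quantile and median-of-ratios scaling, 1 fit of all 4 groups, array weights, edgeR 4.0.16 and DESeq2 1.42.0 on recovered reads, thinning to 2298645 reads a library, a block for replicate number and leaving out libraries. The study's stricter rule was also applied with edgeR and DESeq2, a choice made after seeing the data. No other covariate was used. Levels per kilobase used the union of GENCODE exons. Replicates are separate animals as far as the labels tell. The lowest correlation between libraries of 1 group was 0.950, and no pair within a group was as alike as counting noise alone would make them. Scripts were tested on simulated data.

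The members and the gene lists were chosen with earlier results of these data known. All 10 members are named, and of each other list at most 4 genes called in both OVA comparisons, by the largest mean absolute log2 fold change, with all receptors. Irf1, Cxcl17, Adam10, Adam17 and some marker genes were named after their values were seen. A p-value measures only the spread between these libraries, as do the confidence intervals of fold changes, and the floor of 3 reads covers counting error only.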

Additional observations from a re-analysis of the deposited data

Results flagged for a closer look

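Of 40 groups of values (10 members in 4 groups), 7 had a library that stood apart from the others of its group by Dixon's test, which chance alone does in about 5% of groups. For Cxcl2 these were Sham replicate 1, the low value of its group at 0.924 RPM, and PM replicate 4, the high value of its group at 3.95 RPM. For Cxcl12 they were Sham replicate 3 at 257.5 RPM and Sham-OVA replicate 3 at 83.6 RPM, both low. For Cxcl15 they were PM replicate 5, which was high at 2598 RPM, and Sham-OVA replicate 3, which was low at 502 RPM. For Cxcl9 it was Sham-OVA replicate 3 again, low at 0.932 RPM. Sham-OVA replicate 3 is the shallowest library, and Sham replicate 1 is the library with the Y-linked transcript.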

How the results depend on the processing

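In Sham offspring the 7 members called kept their direction and call at an adjusted p under 0.05 under every alternative tried, and 7 to 8 members were called when each library was left out in turn. In PM offspring 4 to 6 were called without each library in turn, 8 under quantile normalisation and 3 with a replicate block, against 4 in the same libraries with no replicate block. The stricter rule of the study called 0 members in both cohorts with limma, 1 and 0 with edgeR, and 5 and 2 with DESeq2. In the interaction 5 members were called with array weights, a fit in which the weights did not reach their tolerance, and in the other comparisons 0 without each library in turn. Counts of called members stayed within 1.5 times the main count in the other 143 cases. Same-numbered libraries correlated in their deviations at -0.07 to 0.12 between Sham-OVA and Sham, -0.10 to 0.06 between PM-OVA and PM and -0.25 to 0.10 between PM and Sham. Between PM-OVA and Sham-OVA they correlated at 0.60, 0.22 and 0.62 for replicates 1 to 3 and at -0.31 for replicate 4. In no comparison did every pair exceed 0.1, so the numbers were not taken as pairs. These numbers are those of the sample titles. The library names differ from them for all OVA libraries but Sham-OVA replicate 1. The correlations and the replicate block therefore cannot speak to a batch by library name, which was not tested.

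The log2 differences that changed sign were all of values not called. In Sham offspring after OVA, Cxcl2 became 0.21 under quantile normalisation, 0.30 with array weights, 0.48 with edgeR, 0.38 with DESeq2 and 0.28 when thinned. It became 0.22 without Sham-OVA replicate 3, the only shallow library of that comparison, and 0.074 also without Sham replicate 1. Cxcl14 became 0.061 with edgeR, and Cxcl15 became -0.10 under quantile normalisation. In PM offspring, Cxcl13 became -0.21 with array weights, Cxcl15 became 0.14 without the 3 shallowest libraries, and Cxcl14 became 0.16 under quantile normalisation, 0.19 under median-of-ratios scaling, 0.21 with edgeR and 0.23 with DESeq2. Between PM and Sham, Cxcl1 became 0.071 with edgeR and 0.077 with DESeq2, Cxcl5 became -0.17 with array weights, and Cxcl14 became 0.10 when thinned. Cxcl13 became -0.0059 with a pseudocount of 1, -0.0057 under median-of-ratios scaling, and -0.20 with edgeR and with DESeq2. Between PM-OVA and Sham-OVA, Cxcl2 became 0.15 with a pseudocount of 0.1 and Cxcl12 became -0.36 with array weights. Cxcl9 became -0.037 under quantile normalisation, -0.32 with array weights, -0.014 with DESeq2 and -0.10 without the 3 shallowest libraries. In the interaction, Cxcl12 became 0.066 without the 3 shallowest libraries and 0.071 also without Sham replicate 1.

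When single libraries were left out, the difference ranged from -0.60 to 0.22 for Cxcl2 and from -0.10 to 0.49 for Cxcl15 in Sham offspring after OVA. Between PM and Sham it ranged from -0.16 to 0.24 for Cxcl5, -0.15 to 0.22 for Cxcl13 and -0.14 to 0.057 for Cxcl14. Between PM-OVA and Sham-OVA it ranged from -0.64 to 0.18 for Cxcl2, -0.22 to 0.30 for Cxcl9, -0.25 to 0.20 for Cxcl12 and -0.13 to 0.013 for Cxcl16. In the interaction it ranged from -0.57 to 0.071 for Cxcl1, -0.81 to 0.0055 for Cxcl2 and -0.38 to 0.076 for Cxcl12. The cause was not tested. Depth limits values such as Cxcl2 and Cxcl9, which rest on 0 and 3 reads in the shallowest library.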
